A study of Mus musculus and Homo sapiens with 32 samples.

Results

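In the m6A-CT over input comparison of Mettl3 knockout and wild-type mouse embryonic stem cells, 905 transcript regions in 494 genes had less m6A-CT than input signal in wild-type cells and a clearly larger m6A-CT to input ratio in the knockout. They were selected on measured values, by 3 limits, from a deposited differential table of 33473 regions: at least 0.5 RPM (reads scaled to a common library total) of input in both genotypes, a wild-type m6A-CT over input ratio below 1, and a Mettl3 KO ratio at least 1.5 times the wild-type one. The input limit kept 23102 regions, of which 1526 had a wild-type ratio below 1, and the 905 members are 59.3% of these; among all 23102, 8.49% rose by that much. Since the members were chosen by these values, every ratio, fold and change of input or m6A-CT given for them is a description without a test. The knockout cells are C57BL/6 Mettl3-/- embryonic stem cells and the reference cells are C57BL/6 wild-type embryonic stem cells. Each genotype has 2 m6A-CT libraries made with an anti-m6A antibody from MilliporeSigma and 2 input libraries made without antibody. The whole series holds 32 libraries in 16 groups of 2. The table gives 1 value per genotype and library kind, pooled by the authors over the pair of libraries, so no spread between replicates can be given and the errors below cover counting of reads only. The labels do not say how the allele was made, whether the knockout is 1 clone, or how many nuclei were used for the genotype set.

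N6-methyladenosine (m6A) is the most common internal modification of mRNA. METTL3 is the catalytic subunit of the nuclear complex that writes it, mostly in long internal exons and near stop codons, and in embryonic stem cells m6A marks many pluripotency transcripts and shortens their life. In m6A-CT an antibody brings a transposase to m6A-bearing RNA paired with cDNA inside nuclei, and the input is the same tagmentation without antibody guidance. A ratio of m6A-CT to input above 1 is then read as enrichment, and in most listed regions that ratio is lower without Mettl3. The members run the other way. Short-lived regulatory transcripts are known to carry much m6A, and many housekeeping transcripts little.

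The genes of the members are shown here by their promoters, since the sequence of the regions themselves was not analysed. The 2 windows below belong to Ubr4 and Acly, a pair among the genes with the most member regions, and run from 250 bases before to 50 bases after the start (RefSeq, GRCm38.p6). They lie at chr4:139380409-139380708 on the plus strand and at chr11:100527951-100528250 on the minus strand, printed 5′ to 3′ in the direction of the gene. Capitals mark matches to GGGCGG (GC box), CCAAT or TATAAA on either strand.
Ubr4: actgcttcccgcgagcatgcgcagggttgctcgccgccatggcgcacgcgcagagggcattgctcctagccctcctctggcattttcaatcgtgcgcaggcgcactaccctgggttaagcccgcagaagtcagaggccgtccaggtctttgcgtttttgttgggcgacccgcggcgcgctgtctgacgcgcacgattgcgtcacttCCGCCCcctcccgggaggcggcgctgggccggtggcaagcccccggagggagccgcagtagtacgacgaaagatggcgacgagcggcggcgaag
Acly: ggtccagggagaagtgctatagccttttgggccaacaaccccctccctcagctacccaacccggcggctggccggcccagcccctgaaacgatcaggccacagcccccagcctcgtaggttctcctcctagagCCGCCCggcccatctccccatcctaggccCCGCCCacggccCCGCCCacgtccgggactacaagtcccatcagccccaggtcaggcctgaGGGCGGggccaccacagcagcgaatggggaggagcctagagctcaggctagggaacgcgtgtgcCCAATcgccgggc
The Ubr4 window holds 1 match to the GC box, and the Acly window holds 4 together with 1 CCAAT match. RefSeq windows were found for 413 of the 494 member genes. Of their 537 windows, 66.5% hold GGGCGG, against 66.4% of the windows of genes with input and 35.7% of all promoters of this length. CCAAT stood in 39.7% of the member windows, against 38.3% for genes with input and 37.4% of all. The shares for TATAAA were 6.33%, 6.09% and 13.6%. The promoter windows of member genes thus held these letters about as often as those of all genes with input, which include the member genes.

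The median m6A-CT level of the members was 3.28 RPM in Mettl3 KO and 1.88 RPM in wild-type, and the median input level 1.70 RPM in Mettl3 KO and 2.82 RPM in wild-type. The median ratio was 1.79 in Mettl3 KO (0.351 to 4.74) and 0.669 in wild-type (0.0287 to 1.00). The ratio of these ratios, called the fold here, had a median of 2.75, with its middle 50% between 2.25 and 3.58. It lay from 1.5 to 2 in 106 regions, from 2 to 4 in 652 and at 4 or above in 147. In 884 members the lower bound of the 95% counting interval was also at least 1.5. The largest folds rest on few wild-type reads: Mvb12a, named for this alone, at 21.9 with a counting interval of 2.79 to 172, had 1 m6A-CT read in wild-type. Members crossed from below to above equality in 862 cases, whereas 43 stayed below a ratio of 1 in the knockout and 350 reached at least 2.

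**Figure D1:**
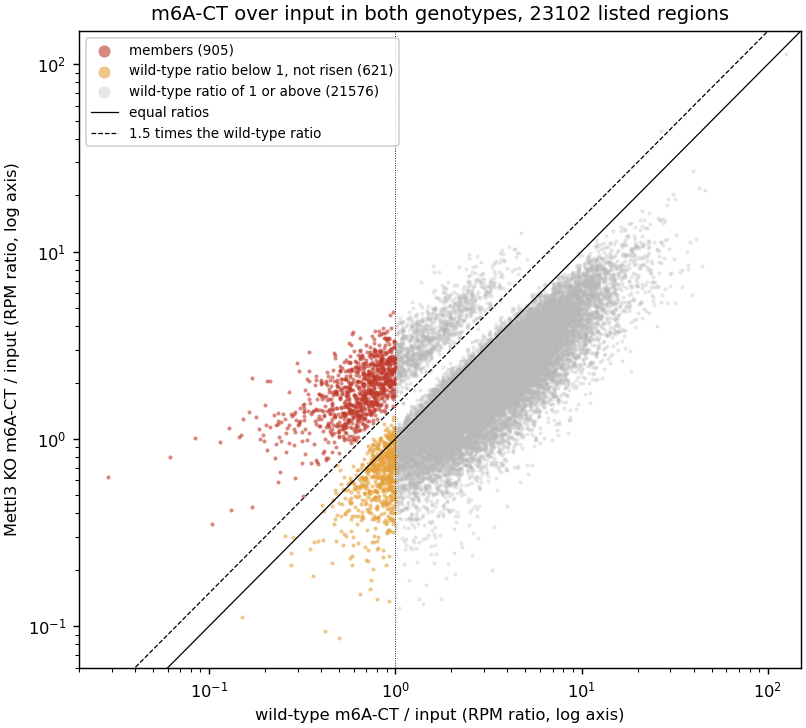
Each point is 1 listed region with at least 0.5 RPM of input in both genotypes; the horizontal axis is the wild-type m6A-CT over input ratio and the vertical axis the Mettl3 KO ratio, both on log scales. The 905 members (red) lie left of a wild-type ratio of 1 and above the dashed line of 1.5 times that ratio, apart from the 621 other regions with a wild-type ratio below 1 (orange), and next to 1056 regions that start above 1 and also rose.

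All 905 members were called higher in Mettl3 KO at an FDR under 0.05 in the authors' deposited table. That table makes the same call for 11% of its regions and the opposite call for 88.8%. Of the members, 486 passed an FDR of 0.01 there. The call is for the same contrast and from the same libraries as the rule, so it is no independent check and nothing is read from these shares. The deposited log2 fold change of the members had a median of 0.99 in the authors' deposited table and a lowest value of 0.0075. It was above the log2 of 1.5 in 750 of the 905, so rises were smaller on the deposited scale than by RPM. Since the table lists almost only regions past its FDR limit, the unenriched regions fall into separate groups. The 621 that did not rise, meaning a fold below 1.5, were all called lower in the authors' deposited table. Their median fold was 0.807, and 305 of them had folds under 0.8, but the highest fold was 1.49. Those with folds above 1 had a larger RPM ratio in the knockout, opposite in direction to the authors' call. Just inside the limit stood Rn45s (fold 1.54), Hsp90ab1 (1.54) and Cad (1.58), and just outside it another Trim28 region (1.49), Cox6a1 (1.37) and Psip1 (1.34), among regions with at least 200 reads. At the other limit, regions of Stat3, Trrap (0.998) and Sf3a1 (0.997) had wild-type ratios just under 1, and regions of Ubr4, Dnmt1 and Prpf6 had ratios just over 1. The last 3 had folds of 3.04, 2.7 and 3.23, no smaller than those of the members beside them.

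The pooled columns hold 37532658 m6A-CT and 51031598 input reads for Mettl3 KO, against 39310394 and 45090626 for wild-type. Rn45s, the precursor of ribosomal RNA, and a region of Lars2, the mitochondrial leucyl-tRNA synthetase gene, are themselves members. Together they took most reads of every column except wild-type m6A-CT. Whether the reads over the Lars2 region come from the mRNA of that gene was not tested. Rn45s had 293363 RPM of m6A-CT and 594908 RPM of input in Mettl3 KO, against 145817 and 454905 RPM in wild-type. The Lars2 region had 251159 and 215226 RPM in Mettl3 KO, against 218731 and 309265 RPM in wild-type. Reads outside both made up 45.5% of m6A-CT and 19% of input in Mettl3 KO, against 63.5% of m6A-CT and 23.6% of input in wild-type. Leaving both out of the totals moves every region's knockout-over-wild-type log2 value by 0.31 for input, 0.48 for m6A-CT and 0.17 for their ratio. On that scale the members' median ratio was 0.745 in Mettl3 KO and 0.248 in wild-type, and 172 of 905 reached a ratio of 1 in the knockout. The fold then had a median of 3.09. Equality of m6A-CT and input in RPM therefore depends on what both regions take up, while the order of the folds is the same on both scales. The stem cell markers looked for were listed in 8 of 10 cases, each with a region of at least 15.7 RPM of input in Mettl3 KO and 44.4 RPM in wild-type. Of 8 fibroblast markers 1 was listed, Pdgfra, with 0.0392 RPM of input in Mettl3 KO and 0 in wild-type. Of the 8 markers of endothelial, blood and epithelial cells 5 were listed. The highest input was that of Pecam1, with 2.72 RPM in Mettl3 KO and 5.03 RPM in wild-type, followed by Epcam with 1.67 and 2.73 RPM. Which cells these reads come from was not tested. Of 4 markers of two-cell-like cells 0 were listed. The unlisted stem cell markers were Dppa5a and Lin28a. Since the table lists regions and not all transcribed genes, an unlisted marker may still be transcribed.

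The targeted gene is a member through its 1 listed region, 375 bp at chr14:52919391-52919765 (mm9, minus strand). This Mettl3 region had 5.33 RPM of m6A-CT and 2.47 RPM of input in Mettl3 KO, against 1.5 and 1.71 RPM in wild-type. The ratio was 2.16 in Mettl3 KO and 0.879 in wild-type, a fold of 2.46 (95% counting interval 1.64 to 3.68). Input over the region was thus not lower in the libraries labelled knockout. The labels do not say which part of the gene was removed, so the region does not check the genotype.

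Both terms of the ratio moved in the members. Input was lower in Mettl3 KO in 856 members (94.6%), where 57.2% of all regions with input were lower, and m6A-CT was higher in 845 (93.4%), where 15.1% of all were higher. The rule used both values, so nothing is read from these shares. In 796 members both held, in 60 only the input was lower and in 49 only the m6A-CT was higher. The median log2 change, Mettl3 KO over wild-type, was -0.71 for input and 0.73 for m6A-CT. The 621 unenriched regions that did not rise had -0.06 for input and -0.37 for m6A-CT. The 1056 enriched regions that rose had -1.01 for input and 0.17 for m6A-CT. Beyond counting error, input was lower in 692 members (76.5%) and higher in 11 (1.22%), against 31.2% and 18.3% of all regions with input. Beyond the same error, m6A-CT was higher in 701 members (77.5%) and lower in 19 (2.10%), against 8.53% and 73.0% of all. With Rn45s and Lars2 out of the totals the members' medians were -0.40 for input and 1.21 for m6A-CT, and those of the enriched regions that rose -0.70 and 0.65. On that scale input was lower in 753 members (83.2%), against 35% of all regions, and m6A-CT was higher in 902 (99.7%), against 36.9% of all. How the change divides between input and m6A-CT therefore depends on the totals. Fewer cells with a transcript and less of it per cell cannot be told apart in these bulk nuclei.

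**Figure D2:**
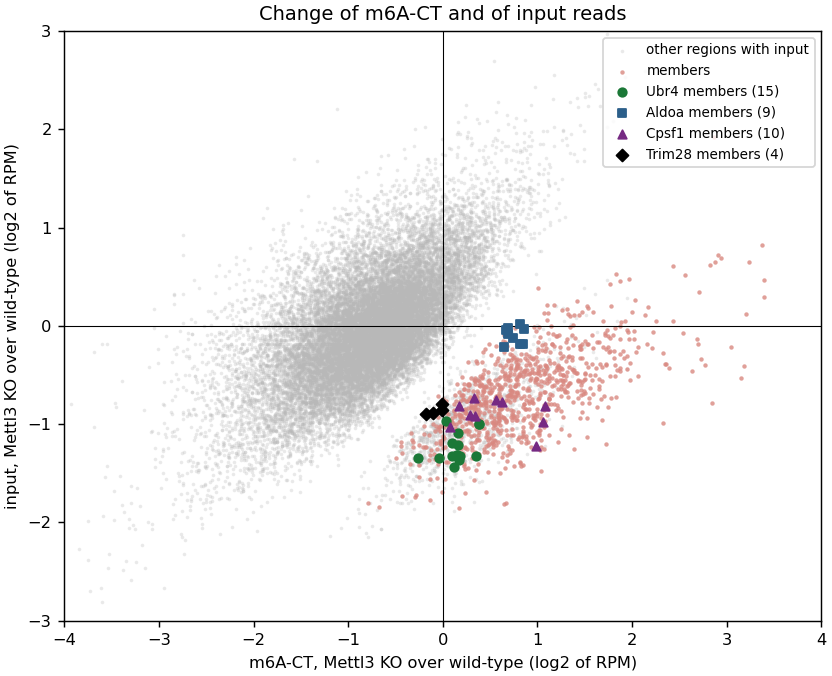
Each point is 1 region, placed by the log2 change of m6A-CT (horizontal) and of input (vertical), Mettl3 KO over wild-type, both from RPM. Members lie to the lower right of the cloud of other regions; on these totals, which include Rn45s and Lars2, Ubr4 and Trim28 lie near 0 for m6A-CT with lower input, and Aldoa near 0 for input with higher m6A-CT.

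Single genes differed in how the change divided between both terms on the full totals. In all 15 member regions of Ubr4, a ubiquitin ligase of the N-degron pathway, the log2 change of input lay between -1.44 and -0.97 and that of m6A-CT between -0.26 and 0.39. Without Rn45s and Lars2 in the totals, the Ubr4 ranges were -1.13 to -0.66 for input and 0.22 to 0.87 for m6A-CT. Trim28, the corepressor that KRAB zinc finger proteins recruit and a gene needed for stem cell identity, behaved alike in its 4 member regions. Its region with the most reads had 55.7 RPM of m6A-CT and 51.0 RPM of input in Mettl3 KO, against 56.1 and 92.3 RPM in wild-type. Tfcp2l1, a transcription factor of naive pluripotency, lost both: its main member region had 15.9 RPM of m6A-CT and 8.15 RPM of input in Mettl3 KO, against 27.6 and 28.4 RPM in wild-type. The log2 input change of its 2 members was -1.85 and -1.80. Aldoa, the glycolytic aldolase, was the reverse. Input of its 9 member regions changed by -0.21 to 0.02 on the log2 scale and m6A-CT by 0.64 to 0.86. On the other totals the Aldoa ranges were 0.10 to 0.33 for input and 1.12 to 1.34 for m6A-CT. The Aldoa region with the most reads had 67.5 RPM of m6A-CT and 79.8 RPM of input in Mettl3 KO, against 41.9 and 84.3 RPM in wild-type.

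Some members had higher input in the knockout, which the rule makes less likely since input is the denominator of the ratio. Cdhr1, a photoreceptor cadherin gene named here after its values were seen, had 5.14 RPM of m6A-CT and 5.31 RPM of input in Mettl3 KO, against 0.0763 and 0.665 RPM in wild-type. Its 3 wild-type m6A-CT reads give a fold of 8.44 with a counting interval of 2.54 to 28.1, and its input was higher by 3.00 on the log2 scale. Eno1b had 35.2 RPM of m6A-CT and 34.6 RPM of input in Mettl3 KO, against 4.83 and 9.14 RPM in wild-type. Eno1b is a near-identical copy of the enolase gene Eno1, so reads may be split between them and its values are uncertain. Mdk, a heparin-binding growth factor gene also named after its values were seen, had 1.92 RPM of input in Mettl3 KO and 1.09 RPM in wild-type.

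Among members with at least 50 reads in each input column and 10 wild-type m6A-CT reads, the largest folds included those of Mpnd, Tmem134, Zc3h7b, Cpsf1, Mta3, Vars2 and Ppil2, from 5.48 to 4.47. The Mpnd region, at chr17:56151863-56151912 (mm9), had 1.39 RPM of m6A-CT and 1.20 RPM of input in Mettl3 KO, against 0.483 and 2.28 RPM in wild-type, with a counting interval of the fold of 2.97 to 10.1. The Zc3h7b region had 2.77 RPM of m6A-CT and 1.27 RPM of input in Mettl3 KO, against 1.32 and 3.04 RPM in wild-type. The counting intervals of these folds overlap, so their order is not resolved. The 8 members with the most reads had folds of 1.54 to 1.80. Cad, the enzyme that starts pyrimidine synthesis, had 238 RPM of m6A-CT and 171 RPM of input in Mettl3 KO, against 247 and 279 RPM in wild-type (fold 1.58, 1.52 to 1.64). The ribosomal protein gene Rpl4 had 146 RPM of m6A-CT in both genotypes, over 104 RPM of input in Mettl3 KO and 175 RPM in wild-type. Hsp90ab1, a cytosolic chaperone, had 219 and 146 RPM in Mettl3 KO, against 183 and 188 RPM in wild-type. On these totals the log2 change of m6A-CT was -0.05 for Cad and 0.00 for Rpl4, and without Rn45s and Lars2 it was 0.43 and 0.48. Input of all 3 was lower in the knockout on both scales, with log2 changes of -0.40 for Cad, -0.43 for Rpl4 and -0.05 for Hsp90ab1 without both regions.

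The 905 members lay in 494 genes, the 1526 unenriched regions in 923 and all 23102 regions with input in 6953. Several regions per gene are therefore not particular to members. A single member stood in 293 genes, while 201 genes with 2 or more held 612 members, 95 genes had 3 or more and 23 had 5 or more. In 238 genes every region with input was a member, 95 of them with 2 or more regions and the rest with only 1. A further pattern was mixed genes: 102 genes also held an enriched region that rose, and 199 also held a region that did not rise and was called lower in the authors' deposited table. Regions of 1 gene share its RNA and are not independent.

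Ubr4 had the most members, 15 of 56 listed regions, and its other 41 regions rose too from wild-type ratios of 1 or above. Cpsf1, a subunit of the cleavage and polyadenylation factor, had 10 members among 11 regions, with ratios of 1.38 to 2.97 in Mettl3 KO and 0.480 to 0.802 in wild-type. All 9 regions of Acly, which makes cytosolic acetyl-CoA, were members, with ratios of 1.00 to 1.35 in Mettl3 KO and 0.499 to 0.736 in wild-type. Those of Aldoa were also all members, at 0.755 to 1.38 in Mettl3 KO and 0.377 to 0.742 in wild-type. In Acly and Aldoa the whole listed transcript shifted, with little variation of the fold, from 1.78 to 2.34 and from 1.63 to 2.04. Gcn1l1, an activator of the amino acid sensor GCN2, had 9 members of 13 regions, and the initiation factor gene Eif4g2 had 8 of 13, with the other 5 rising from above 1. Of the genes with fewer members, Sars2, Limk1, Fasn and Tsc2 are named after their values were seen. Sars2, the mitochondrial seryl-tRNA synthetase, had all 7 regions among the members with folds of 3.03 to 5.34, and Limk1, a kinase acting on cofilin, all 6 with folds of 3.26 to 5.24. Fasn, the fatty acid synthase gene, was split: 6 of its 20 regions were members and 14 did not rise. Tsc2, which restrains mTORC1, had 7 members and 1 region called lower with a wild-type ratio of 4.24.

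**Figure D3:**
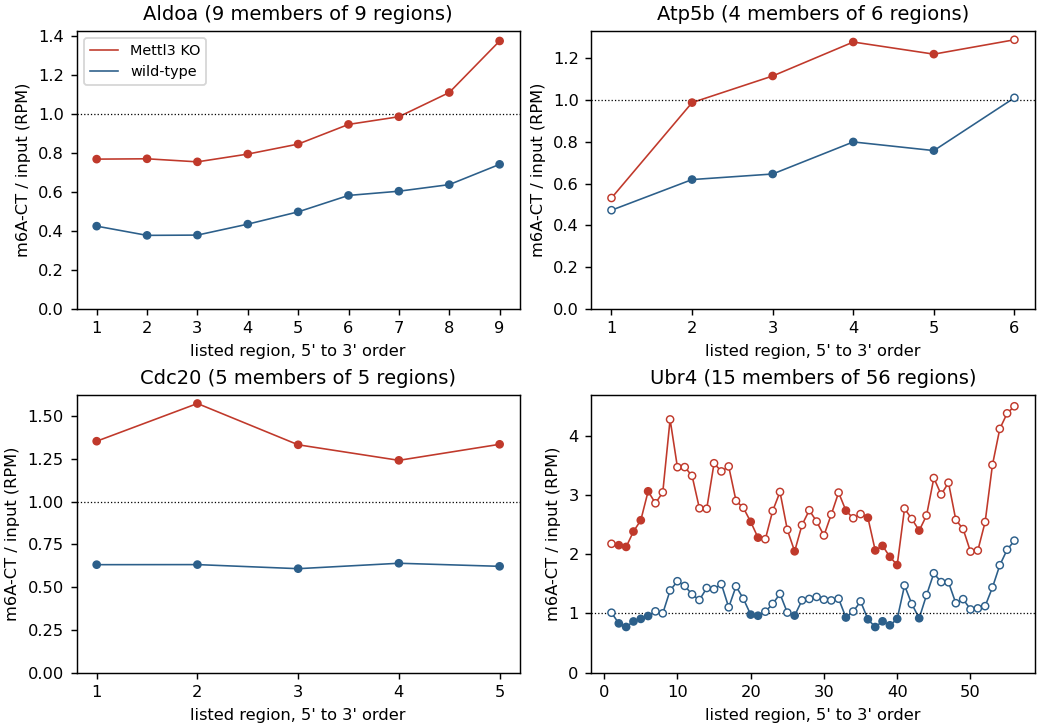
The m6A-CT over input ratio (RPM) of every listed region of 4 genes in 5′ to 3′ order, Mettl3 KO in red and wild-type in blue, with filled points for members. In Aldoa and Cdc20 every region is a member, in Atp5b 4 of 6 are, and in Ubr4 the members are the regions where the wild-type line dips below 1.

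Where a gene had 3 or more regions with input, members tended to stand towards its 5′ end. In 243 such genes, 599 members had a median relative rank of 0.333 (0 for the first and 1 for the last listed region). They were the first region in 29.4% of cases and the last in 11.7%. The enriched regions that rose in these genes had a median rank of 0.600, and the regions called lower had 0.667, of which 26.7% came last. Over all 1349 regions of these genes the first and the last each make up 18.0%. The rank was not part of the rule, but the limit on the wild-type ratio was. In Aldoa, where all 9 regions are members, the first region had a ratio of 0.769 in Mettl3 KO and 0.424 in wild-type, and the last region 1.38 in Mettl3 KO and 0.742 in wild-type. The part of such slopes in the ranks was not tested.

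Members were short. Their median exonic length was 100 bp, against 169 bp for the unenriched regions that did not rise, 125 bp for the enriched ones that rose and 175 bp for all with input. Of the 905, 504 (55.7%) spanned at most 100 bp and 30 spanned over 500 bp, and 902 (99.7%) lay in a single exon block, as did 98.0% of all with input. Only 2, in Gm16982 and Zfp384, overlapped a listed region on the opposite strand, so their reads cannot be assigned to a strand with certainty, as the strand setting is not given in the sources used here. Another 5 carried joined gene names, among them 3 of Snhg14, Snrpn and Snurf.

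The deposited MeTPeak list of Mettl3 KO peaks, called from the same knockout libraries, covered 409 members (45.2%, Wilson 95% interval 42.0 to 48.4), against 57.3% of all regions with input. The wild-type list covered 40 members (4.42%), against 72.1% of all. Hence 371 members (41.0%) lay in a knockout peak and in no wild-type peak, as did 5.71% of all regions, and 38 lay in peaks of both genotypes. The unenriched regions that did not rise met a knockout peak in 6.60% and a wild-type peak in 7.89% of cases. The enriched regions that rose did so in 95.5% and 67.0%. Because peaks and members come from the same reads, these shares describe how far the list and the rule coincide and are no independent check. Regions of 1 gene are counted separately in the intervals, which cover counting error only.

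The 409 covered members met 268 knockout peaks in 224 genes. These peaks had a median deposited fold of 2.83, where all 20482 knockout peaks had 3.25. Presence went with the knockout ratio: 4 of 43 members with a Mettl3 KO ratio below 1 were in the list, 78 of 246 from 1 to 1.5, 134 of 266 from 1.5 to 2, 164 of 310 from 2 to 3 and 29 of 40 at 3 or above. It also went with depth, at 16.7% of members with under 200 reads in the 4 columns together and 76.8% of those in the deepest class, with 1000 or more. All 15 Ubr4 members, all 9 of Acly and all 9 of Gcn1l1 were in knockout peaks. Of Aldoa's 9, Cpsf1's 10 and Sars2's 7, 0 were. Tfcp2l1 met a peak with a deposited fold of 22.8, although its m6A-CT over input was 1.95 in Mettl3 KO. Rn45s met one with a deposited fold of 62.1 at a ratio of 0.493, while the Lars2 region, at 1.17, met none. The deposited fold is the caller's own, and how it was computed is not given in the sources used here.

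**Figure D4:**
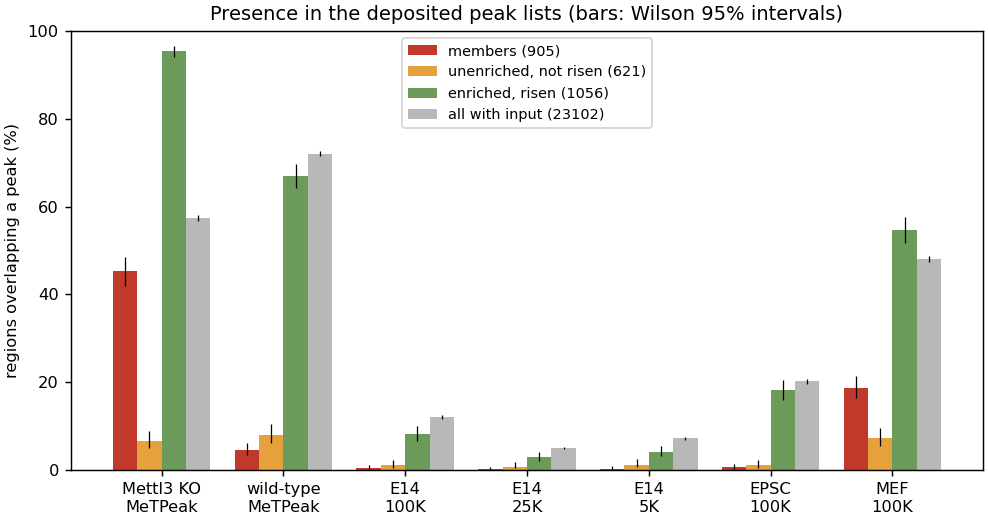
Share of regions that overlap a peak of each deposited list by at least 1 bp, for members (red), unenriched regions that did not rise (orange), enriched regions that rose (green) and all regions with input (grey), with Wilson 95% intervals. Members stand at 45.2% in the Mettl3 KO list, 4.42% in the wild-type list, under 1% in the E14 and EPSC lists and 18.7% in the MEF list.

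The peak lists of other cells were made from separate libraries, with an antibody from Synaptic Systems, and no value of theirs entered the rule. E14 cells are another mouse embryonic stem cell line, EPSC are expanded potential stem cells, and MEF are mouse embryonic fibroblasts. The E14 list from 100K nuclei covered 4 members (0.442%, interval 0.172 to 1.13), against 12% of all regions with input. These 4 lay in Nvl, Rbm39, Rn45s and Srsf7, named after their values were seen. The E14 lists from 25K and 5K nuclei covered 1 and 2 members, against 4.87% and 7.09% of all, and the EPSC list 5 (0.552%), against 20.1%. In the fibroblast list the share was far higher, at 169 members in 97 genes (18.7%, 16.3 to 21.3), but still below the 48% of all regions. The unenriched regions that did not rise met MEF peaks in 7.09% of cases and the enriched ones that rose in 54.7%. Among regions over 100 and up to 200 bp, 23.5% of members met a MEF peak, against 51.6% of all regions of that length. Of members in a knockout peak 29.8% also met a MEF peak, against 9.48% of those in none. Presence in both lists went with depth: 7.41% of members with under 200 reads met a MEF peak, and 32.8% of those with 1000 or more. The part of depth in the difference between 29.8% and 9.48% was not tested. Ubr4 led, with 14 of its 15 members in MEF peaks. The MEF list holds 38205 peaks and the E14 list from 100K nuclei 8052, and cells, antibody and list length differ together, so their parts cannot be told apart.

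By function, genes with a member made up 7.1% of the 6953 genes with input, and the share varied widely between gene lists. Leaving aside families grouped from the members themselves, glycolysis had the highest share with 4 of 13 genes, and the respiratory chain and ATP synthase came next with 9 of 33. Core histones followed with 4 of 20, the proteasome with 4 of 21, translation factors with 7 of 40, cytosolic ribosomal proteins with 5 of 30, cell cycle genes with 6 of 37, naive pluripotency genes with 4 of 27 and mitochondrial ribosomal proteins with 5 of 38. Near the background stood imprinted protein-coding genes (1 of 9), chromatin regulators (3 of 36), tubulins and actins (2 of 24), spliceosome and RNA-binding proteins (6 of 78), chaperones (4 of 54) and the m6A machinery (1 of 18, Mettl3 itself). Below it were solute carriers (6 of 127), predicted genes and clone names (3 of 228) and zinc finger genes (1 of 275, Zfp384). Immediate early genes (10), long noncoding and snoRNA host RNAs (7) and small RNA genes (27) had 0. Mitochondrially encoded genes were not listed. Members need a wild-type ratio below 1, and lists differ in how many genes have such a region. Of genes with such a region, 494 of 923 had a member. The counts were 4 of 8 for glycolysis, 9 of 16 for the respiratory chain and 4 of 17 for core histones. They were 4 of 7 for the proteasome, 7 of 12 for translation factors and 5 of 10 for cytosolic ribosomal proteins. Cell cycle genes had 6 of 14, naive pluripotency genes 4 of 6 and mitochondrial ribosomal proteins 5 of 13. Among the lists below the background, solute carriers had 6 of 8, predicted genes and clone names 3 of 7 and zinc finger genes 1 of 4. Immediate early genes had no such region, so none of them could be a member. Low shares over all genes with input thus partly reflect how few genes of a list had a wild-type ratio below 1. These shares are counts without a test.

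**Figure D5:**
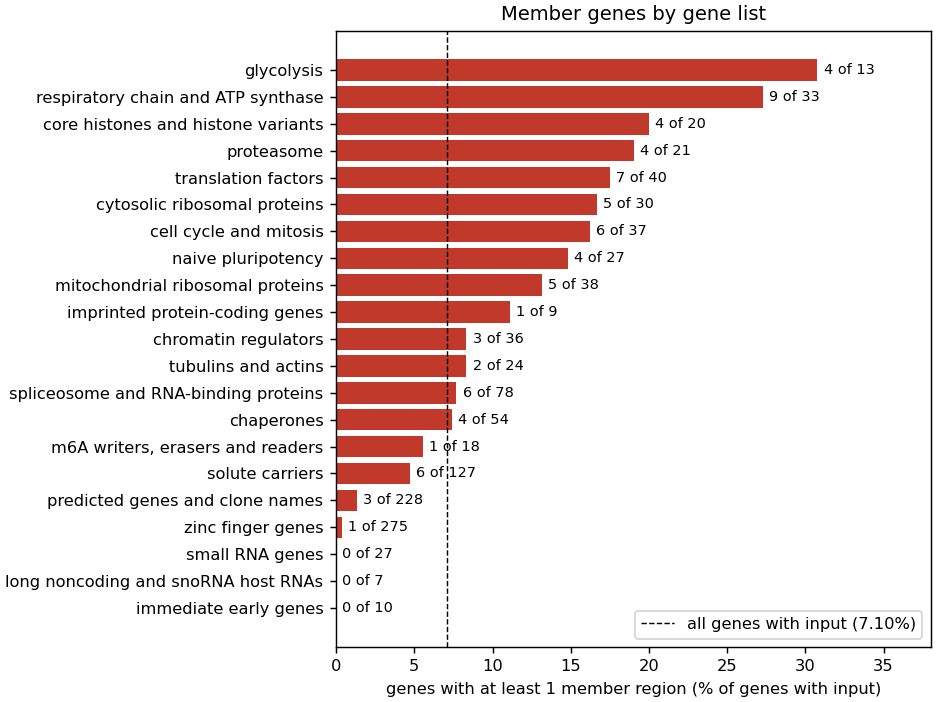
Share of the genes with input in each list that have at least 1 member region, as a percentage, with counts beside the bars; the dashed line marks all genes with input (7.1%). Glycolysis and the respiratory chain lie highest, and zinc finger genes, at 1 of 275, lowest among the lists with any member.

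In the respiratory chain, 15 of 61 regions with input were members and 28 had a wild-type ratio below 1. The median fold of all 61 was 0.801, where all regions with input had 0.635. Atp5b, the beta subunit of the ATP synthase, had 72.0 RPM of m6A-CT and 59.0 RPM of input in its main member region in Mettl3 KO, against 53.8 and 71.0 RPM in wild-type. Atp5a1, the alpha subunit, had 46.5 and 45.1 RPM in Mettl3 KO, against 29.5 and 50.3 RPM in wild-type. Ndufs7, a core subunit of complex I, stayed below equality, with 4.69 and 7.96 RPM in Mettl3 KO, against 1.63 and 6.90 RPM in wild-type. The list's members had a median log2 change of -0.23 for input on the full totals, smaller than the -0.71 of all members. In glycolysis, 12 of 52 regions were members, 9 of them in Aldoa, with a median log2 input change of -0.06, and 0 lay in knockout peaks. Without Rn45s and Lars2 in the totals every log2 input change is higher by 0.31. The medians of both lists turn positive on that scale, so their direction depends on the totals. The glycolytic enzyme gene Gapdh had 1.3 RPM of m6A-CT and 0.941 RPM of input in Mettl3 KO, against 0.458 and 1.18 RPM in wild-type. Pfkm, the muscle-type phosphofructokinase, had 1.65 and 1.18 RPM in Mettl3 KO, against 0.280 and 0.821 RPM in wild-type. The wild-type m6A-CT value of Pfkm rests on few reads, at 0.0254 RPM per read.

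Histone genes were unenriched as a class, with 20 of their 24 regions with input at a wild-type ratio below 1. Of these 20, 7 were members, a smaller share than the 59.3% of all unenriched regions. Hist1h2bl had the lowest knockout ratio of any member, with 1.97 RPM of m6A-CT and 5.62 RPM of input in Mettl3 KO (0.351), against 0.483 and 4.68 RPM in wild-type (0.103). Hist1h2bk was close, at 0.415 in Mettl3 KO and 0.132 in wild-type. Genes of this cluster are alike in sequence, so reads may be split between copies. H2afy, the macroH2A gene, stood apart at 1.57 in Mettl3 KO and 0.750 in wild-type and lay in a knockout peak.

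Most regions of the translation and protein turnover lists were not members, and their median fold over all regions with input was 0.901 for translation factors, 0.783 for the proteasome and 0.745 for chaperones. Translation factors had 15 member regions, 10 of them in knockout peaks, with median log2 changes of -0.59 for input and 0.34 for m6A-CT. Eif2b5, of the guanine nucleotide exchange factor eIF2B, had 10.6 RPM of m6A-CT and 7.11 RPM of input in Mettl3 KO, against 10.7 and 13.1 RPM in wild-type. Eif3f, an eIF3 subunit, had 13.8 and 14.0 RPM in Mettl3 KO, against 10.6 and 19.9 RPM in wild-type. Of the cytosolic ribosomal proteins, Rps4x had 27.8 and 23.9 RPM in Mettl3 KO, against 18.8 and 30.6 RPM in wild-type. The 5 mitochondrial ribosomal members had a larger median fold, 3.45, at lower levels, and 0 lay in knockout peaks. Psme1, a proteasome activator subunit, was an exception on input: 1.68 RPM of m6A-CT and 1.3 RPM of input in Mettl3 KO, against 0.178 and 0.798 RPM in wild-type. Its wild-type m6A-CT value rests on few reads, as 1 read was worth 0.0254 RPM there. Among chaperones, Cct4 and Cct6a, subunits of the CCT ring, had folds of 1.70 and 1.83 and lay in knockout peaks.

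Pluripotency genes held 10 member regions. Pou5f1, the master regulator OCT4, had 2 member regions. The one with more reads held 36.2 RPM of m6A-CT and 35.3 RPM of input in Mettl3 KO, against 28.5 and 45.1 RPM in wild-type, a fold of 1.63 (1.47 to 1.80). Neither lay in a knockout peak. Stat3, the effector of LIF signalling, had 2.50 and 0.980 RPM in Mettl3 KO, against 2.59 RPM of each in wild-type. The log2 change of the Stat3 region was -1.41 for input and -0.05 for m6A-CT, and -1.09 and 0.43 without Rn45s and Lars2 in the totals. Over the list's 10 members the median log2 change on the full totals was -0.89 for input and -0.03 for m6A-CT. Cell cycle members included Cdc20, the activator of the anaphase-promoting complex, with all 5 regions, Ccnb1, Mcm2 and Mcm7. The Ccnb1 region had 8.93 RPM of m6A-CT and 5.19 RPM of input in Mettl3 KO, against 8.22 and 9.0 RPM in wild-type. Of the chromatin regulators, Smarca4, the BRG1 ATPase, had 7.67 and 4.04 RPM in Mettl3 KO, against 8.90 and 9.45 RPM in wild-type, and the DNA methyltransferase gene Dnmt3b stayed at a ratio of 0.828 in Mettl3 KO, against 0.329 in wild-type. Gnas, the imprinted gene of the stimulatory G protein alpha subunit, had 4 members with folds of 1.95 to 3.71. Their log2 input changes were -0.10 to 0.26 on the full totals and all positive without Rn45s and Lars2.

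A few other families were grouped after the member genes had been seen, so their counts only describe the members. Replicative DNA polymerases and primase had 5 of 9 genes with a member, coatomer and clathrin adaptor subunits 8 of 15, ribosome biogenesis factors 18 of 38, nucleotide synthesis enzymes 7 of 15, nucleoporins and nuclear transport receptors 11 of 34 and aminoacyl-tRNA synthetases 6 of 25. Members made up 8 of the 19 polymerase regions with input and 25 of the 67 coatomer and adaptor regions. The median fold over all their regions, members included, was 2.58 for polymerases and primase and 2.03 for coatomer and adaptor subunits. In the other families that median was below 1. It was 0.921 for ribosome biogenesis factors, 0.811 for nucleotide synthesis enzymes, 0.815 for nucleoporins and transport receptors and 0.962 for aminoacyl-tRNA synthetases. Pole2, an accessory subunit of polymerase epsilon, had 1.39 RPM of m6A-CT and 0.509 RPM of input in Mettl3 KO, against 0.687 and 1.06 RPM in wild-type. Copa, the alpha subunit of coatomer, had 3.76 and 1.29 RPM in Mettl3 KO, against 2.09 and 2.64 RPM in wild-type. Heatr1, a factor of the small ribosomal subunit's processome, reached a ratio of 3.77 in Mettl3 KO, against 0.783 in wild-type, and lay in a knockout peak. Fbl, the fibrillarin that methylates ribosomal RNA, reached 2.56 in Mettl3 KO, against 0.986 in wild-type. Paics, a purine synthesis enzyme, had 11.5 and 8.92 RPM in Mettl3 KO, against 8.67 and 12.8 RPM in wild-type. Nup188, a scaffold nucleoporin, had 8 members of 11 regions, 7 of them in knockout peaks.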

How the data were processed

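Per the submitters' processing notes, the tools were Trim Galore, STAR 2.7.2 and MACS2 and the builds mm9 and hg19; MeTPeak and exomePeak2 are named per the labels, without version or settings. In the authors' table of RPM values, each of the 4 columns steps by the worth of 1 read (to within 0.001 reads), which gave back reads and totals; how the authors pooled 2 libraries per column is not stated. The deposited log2 fold change (shifted against the RPM ratios), p-value with FDR, and −log10 of p come from the same table. The deposited MeTPeak fold is the caller's ratio, beside deposited log10 values of p and FDR. The deposited MACS2 score is 10 times −log10 q, which is at least 10 in each list. Other deposited columns hold positions, which were used for overlaps.

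With Python 3.11.15, pandas 2.3.3, numpy 2.4.6, scipy 1.17.1 and matplotlib 3.10.9, ratios, folds with 95% counting intervals from the reads, overlaps (at least 1 bp, same strand for MeTPeak) and Wilson 95% intervals were computed, after a check on simulated data. PCR reads are not independent molecules. Coordinates are mm9, counted from 1. Members and gene lists were chosen with earlier results of these data known. Named regions are the 8 with the largest folds (at least 50 reads in each input column and 10 in wild-type m6A-CT), the 8 with the most reads, up to 4 per list, the 6 genes with most members and the 3 on each side of each limit; exceptions are stated, and 1 of the 8 with the largest folds is not reported here. No test was run, as values per replicate were not analysed here.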

Additional observations from a re-analysis of the deposited data

How the results depend on the processing

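No paired analysis was possible because each genotype and library kind has 1 pooled column, and for the same reason no replicate could be left out. The number of members was 166 with at least 5 RPM of input in both genotypes and 2753 with Rn45s and Lars2 out of the totals, which include all 905. It lay between 635 and 915 under the other 8 alternatives. The median log2 input change was -0.40 with both regions out of the totals and -0.61 at 5 RPM, and lower in the knockout throughout. Members called higher in the authors' deposited table numbered 486 at an FDR of 0.01. Presence in the Mettl3 KO peak list was 37.6% when 50% of a region had to be covered, 8.51% with peaks of a deposited fold of at least 5, and 76.8% for regions with at least 1000 reads, the last chosen after seeing the data. With −log10 q of at least 20, the MEF share was 11.3% and that of E14 from 25K nuclei 0%, which was also 0% at 50% overlap, where EPSC had 0.110%. Among regions of over 100 to 200 bp, also added later, the MEF share was 23.5% and that of E14 from 100K nuclei 0%, against 51.6% and 8.72% of all regions of that length. At a fold of at least 2, the genes with a member numbered 3 for cytosolic ribosomal proteins, 3 for the cell cycle, 2 for chaperones, 2 for naive pluripotency and 1 for predicted genes. Of 258 values recomputed for the named regions, 11 moved beyond their counting interval; the change of totals shifts every fold up alike and could reverse none. Causes were not tested beyond what each alternative itself leaves out. Depth limits the smallest regions, since 1 read is 0.0196 to 0.0266 RPM.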
